A study of Mus musculus with 20 samples.

Results

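The replication-dependent histone genes were taken as the rows of the deposited expression table whose symbol starts with Hist1h, Hist2h, Hist3h or Hist4h and is not marked as a pseudogene by the ending -ps. This rule, which uses only the symbol, gave 69 of the 51789 genes in the table. They were 6 for linker histone H1, 20 for H2A, 18 for H2B, 12 for H3 and 13 for H4. The H2A rows include Hist1h2aj and Hist1h2al, which are annotated as pseudogenes although their symbols lack that ending. Total RNA came from intervertebral discs of BL6 mice aged 24 months, taken separately from the nucleus pulposus (NP), the soft centre that derives from the notochord, and from the annulus fibrosus (AF), the collagen-rich ring that encloses it. All mice, controls included, had received weekly intraperitoneal injections for 6 months from 18 months of age, either of the solvent DMSO alone (vehicle) or of MDL-800 in DMSO. The compound activates SIRT6, a chromatin-bound deacylase whose known substrates include acetylated histone H3. There were 5 libraries in each of the 4 groups: NP vehicle (libraries 1, 2, 3, 5 and 6), NP MDL-800 (15, 18, 19, 20 and 22), AF vehicle (8, 9, 10, 12 and 13) and AF MDL-800 (25, 27, 28, 29 and 30). Where the values of every library in a group are given below, they are in this order. The labels do not say whether each library came from a separate mouse, nor how many discs went into it, so the p-values measure the spread between these libraries.

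Replication-dependent histone genes supply the histones that package newly copied DNA, and their mRNAs accumulate in S phase and are degraded when replication ends. The genes lie in clusters and mostly lack introns. Their mature mRNAs end in a conserved stem-loop in place of a poly(A) tail. The stem-loop is bound by SLBP, which takes the mRNA through processing, export, translation and decay, while NPAT activates the genes' transcription. Cells that have left the cycle rely instead on replacement variants such as H3.3, and some clustered genes also give polyadenylated transcripts in such cells. Because the tail is missing, total RNA libraries such as these hold mRNAs that poly(A) selection would mostly lose.

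The stem-loop is shown first because it is the known mark of this gene class, although it was not found in every member. A motif of 16 bases was searched downstream of the stop codon in the GENCODE M21 models (mouse build GRCm38): GG, then 4 bases of any kind, TT, 6 bases of any kind and CC, with the first 6 bases complementary to the last 6. Of the 69 genes, 54 have an annotated 3′ end beyond the stop codon, and the motif was found in 44. It was found in 53 of 21070 other protein-coding genes with such an end, or 0.252%. The transcript sequences below carry the 16 bases in capitals with 5 bases on each side, and were chosen to show the form typical of H1, H2A, H2B and H3, a variant with a changed loop, and the H4 forms.
Hist1h1c: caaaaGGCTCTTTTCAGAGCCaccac
Hist1h2bg: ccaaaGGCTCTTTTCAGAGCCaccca
Hist1h3e: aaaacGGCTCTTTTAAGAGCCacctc
Hist1h4d: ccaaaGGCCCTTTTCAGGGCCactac
Hist2h4: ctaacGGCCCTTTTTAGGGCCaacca
Hist1h4b: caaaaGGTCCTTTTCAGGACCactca
The form in Hist1h1c and Hist1h2bg was found in 3 H1, 10 H2A, 8 H2B and 5 H3 genes and in no H4 gene. The H4 genes carried other stems: the form in Hist1h4d was found in 7 of them, that in Hist2h4 in 2 and that in Hist1h4b in 2. The motif began 24 bases past the stop codon in Hist1h1c and 36 bases past it in Hist1h4d. A missing match says only that these letters are not in the annotated model.

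The promoters differed by histone type. RefSeq start sites (GRCm38.p6) were matched for 61 members, and the 250 bases before each were searched on both strands for 4 motifs, none of which contains another. CCAAT was present in 50 of the 61, in 17 of 17 H2A and 16 of 16 H2B promoters and in 3 of 12 H4 promoters, against 37.5% of all 27025 promoters. The octamer ATTTGCAT, a binding site of the Oct1 factor known from H2B promoters, was present in 7 of 17 H2A and 7 of 16 H2B promoters and in 0 of the other types, against 1.81% of all promoters. Windows of some H2A and H2B genes on opposite strands overlap, so the same site can count for both types. The octamer of Hist1h2ae and that of Hist1h2bg are such a shared site. AAACACA, the H1 box, was present in 5 of 6 H1 promoters and 7.20% of all. TATAAA was present in 29 of the 61 and 14.3% of all. The following 120 bases before the start site, 5′ to 3′ on the gene's strand with these motifs in capitals (ATTGG is CCAAT on the other strand), show an H1, an H2B and an H4 gene whose values are described below. They lie at chr13:23738687-23738806 (+ strand) for Hist1h1c, chr13:23571280-23571399 (+ strand) for Hist1h2bg and chr13:23581448-23581567 (+ strand) for Hist1h4d.
Hist1h1c: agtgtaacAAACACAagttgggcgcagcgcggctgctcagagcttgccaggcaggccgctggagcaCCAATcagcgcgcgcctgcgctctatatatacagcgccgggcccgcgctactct
Hist1h2bg: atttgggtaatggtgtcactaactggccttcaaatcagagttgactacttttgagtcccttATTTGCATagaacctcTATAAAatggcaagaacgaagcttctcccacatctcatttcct
Hist1h4d: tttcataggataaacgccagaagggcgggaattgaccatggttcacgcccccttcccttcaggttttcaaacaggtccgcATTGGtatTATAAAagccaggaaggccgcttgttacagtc
A match is a description of the letters and not evidence of a bound factor.

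Levels are given as scaled FPKM, the deposited FPKM (fragments per kilobase of transcript, relative to all mapped fragments) divided by a library factor of 0.933 to 1.06. Differences are on log2(scaled FPKM + 1), which understates the change of low genes, and a gene is called higher or lower at a limma adjusted p under 0.05 over the 16383 genes that reached 1 FPKM in 5 or more of the 20 libraries. Of the 69 members 57 were tested: 5 H1, 11 H2A, 17 H2B, 11 H3 and 13 H4. The other 12 are 9 H2A genes, Hist1h1t, Hist1h2ba and Hist2h3c1, and 4 of these (Hist1h2aa, Hist1h2aj, Hist1h2al and Hist1h2ba) were listed at 0 in every library. Of these, Hist1h2aj and Hist1h2al are annotated as pseudogenes. Hist1h1t, Hist1h2aa and Hist1h2ba encode histones known from testis. Of the tested members, 7 reached 1 FPKM in fewer than 5 NP libraries, and 2 of these, Hist1h2ae and Hist1h2ag, reached it in no NP library and passed wholly through AF. Hist1h2bq and Hist1h2af reached it in fewer than 5 AF libraries, and Hist1h2bq passed mainly through NP, where it is higher.

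The library labels were compared with marker genes. NP libraries held Krt8 at 822 ± 57.5 scaled FPKM and the notochord factor T at 1399 ± 251 (SD, n = 5, vehicle), against 180.4 ± 127 and 304 ± 200 in AF vehicle. Noto and Car12, also NP markers, were at or near 0 in all NP libraries. The AF marker Tnmd was at 1.11 ± 1.20 in NP and 48.2 ± 13.6 in AF vehicle. Estimated depth was 12.8 M to 22.0 M fragments per library, so that 1 fragment on a 500-base transcript was worth 0.138 to 0.256 FPKM. Within AF, vehicle library 12 and MDL-800 library 27 had the lowest and MDL-800 library 30 the highest sums of the histone genes. Within NP, vehicle library 6 and MDL-800 library 22 were highest in their groups. The GC slope of a library is the change in its log2 deviation from the mean of all libraries per 10 points of gene GC content. It was -0.28 in both NP vehicle libraries 1 and 2, -0.24 in AF vehicle library 12 and -0.11 in AF MDL-800 library 27, and lay between -0.050 and 0.14 in the other 16.

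**Figure D1:**
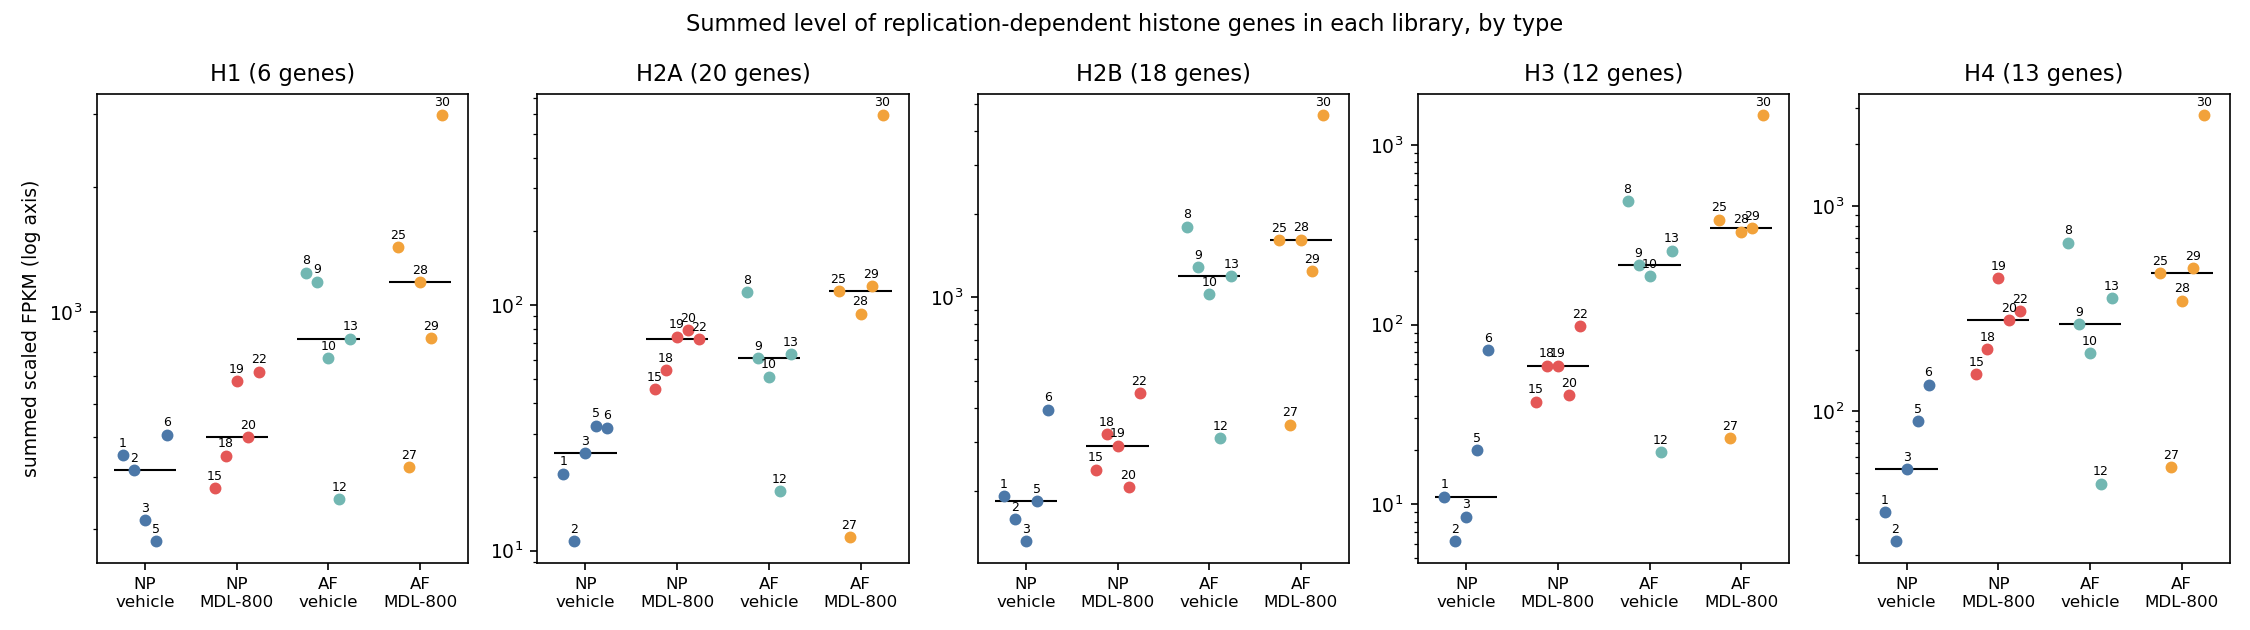
Summed level of each histone type in every library (scaled FPKM, log axis), one panel per type, with library numbers beside the points and a bar at the group median. Sums in NP vehicle lie below the AF vehicle median for all types, NP MDL-800 libraries lie above all NP vehicle libraries for H2A and H4, and libraries 12, 27 and 30 set the range in AF.

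Most tested histone genes were lower in NP than in AF under vehicle. Summed over all 69 genes, the level was 720 ± 242 scaled FPKM (SD, n = 5) in NP vehicle and 2605 ± 1291 in AF vehicle. It was 1248 ± 338 in NP MDL-800 and 4777 ± 4426 in AF MDL-800, where library 30 alone stood at 12393. Under vehicle, 39 of the 57 tested members were lower in NP, against 33.9% of all genes tested, 4 were higher, against 21.8% of all, and 14 were not called. Hist1h2ae and Hist1h2ag entered the test wholly through AF and Hist1h2bq mainly through NP, so these counts rest partly on the filter. The median log2 difference of the tested members was -2.20, and that of all genes tested was -0.08. By type, 4 of 5 H1, 5 of 11 H2A, 13 of 17 H2B, 9 of 11 H3 and 8 of 13 H4 genes were lower. In bulk tissue, fewer expressing cells and less RNA per cell cannot be told apart.

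H1 was the type with the highest summed level in every NP library. Hist1h1c (ENSMUSG00000036181, chr13:23738808-23740367, + strand, 1 exon) encodes a somatic H1 that is also expressed outside S phase. It measured 340.1, 346, 246, 215 and 309.5 scaled FPKM in NP vehicle and 208, 307, 144, 118 and 143 in AF vehicle. It was called higher in NP, with ranges that overlap in AF library 9 (log2 difference 0.72 ± 0.25 SE, adjusted p = 0.0303). This gene alone was 42.6 ± 11.4% (SD, n = 5) of the summed member level in NP vehicle and 8.51 ± 4.61% in AF vehicle. Hist1h1a (ENSMUSG00000049539, chr13:23763666-23764406, + strand), an H1 gene typical of proliferating cells, went the other way. It was at 19.9, 10.4, 13.3, 11.7 and 60.8 in NP vehicle and 337, 346, 242, 103 and 254 in AF vehicle. Every AF library exceeded every NP library (-3.62 ± 0.48 SE, adjusted p = 0.000106). Hist1h1b, Hist1h1d and Hist1h1e were also lower in NP. Side by side, Hist1h1c and Hist1h1a were at 291 and 23.2 in NP vehicle and at 184 and 257 in AF vehicle (means of 5). The call of Hist1h1c was lost without any one of NP vehicle libraries 1, 2 and 6 or AF vehicle libraries 10, 12 and 13.

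H2B genes spanned the widest range of tissue differences. Hist2h2bb (chr3:96269752-96270132, + strand) measured 31.2, 19.5, 16.4, 31.8 and 78.9 scaled FPKM in NP vehicle and 350.0, 292, 306, 169 and 355 in AF vehicle. The groups did not overlap (-3.19 ± 0.38 SE, adjusted p = 5.63e-05). Hist1h2bg (chr13:23571396-23572013, + strand) was at 1.95, 0.763, 2.90, 8.81 and 29.5 in NP vehicle and 299, 174, 133, 7.52 and 166 in AF vehicle. AF library 12 lay below NP libraries 5 and 6, so these groups overlap, and the difference was -4.13 ± 1.00 SE (adjusted p = 0.00491). Hist2h2be (chr3:96221119-96223738, + strand), a gene in the same cluster as Hist2h2bb, ran opposite to it. It was at 13.0, 16.0, 17.8, 15.8 and 16.0 in NP vehicle and 4.88, 9.22, 7.11, 5.56 and 4.07 in AF vehicle, again with no overlap (1.26 ± 0.18 SE, adjusted p = 0.000188). The low-level Hist1h2bq was higher in NP as well (1.58 ± 0.621 against 0.452 ± 0.320, SD, n = 5, log2 difference 0.82, adjusted p = 0.00351), but only 5.43% of the 100-base windows of its model are found in no other annotated transcript. Hist1h2bq also entered the test mainly through NP, where it is higher, so its call rests partly on the filter. Hist1h2be was called higher (0.96 ± 0.34 SE, adjusted p = 0.0338), and its model shares exon sequence on the same strand with Hist1h1e and Gm11398. The number of members called higher fell from 4 to 2 without NP vehicle library 1 or 2 or AF vehicle library 10, 12 or 13, and Hist2h2be and Hist1h2bq passed in each of these fits. Ranges of 2 members did not overlap with NP higher and of 8 with NP lower, against 15.1% and 25.9% of all genes tested. These counts also rest partly on the filter, since Hist1h2bq is among the 2 and Hist1h2ag, which passed wholly through AF, among the 8.

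The 4 genes higher in NP have long or spliced models. A model with more than 1 exon or at least 1000 bases is annotated for 19 members, 18 of them tested. Of these 18, 4 were called higher and 8 lower in NP under vehicle, with a median log2 difference of -1.10. Of the other 39 tested members 0 were higher and 31 lower, with a median of -2.61. The model of Hist1h1c runs on for 840 bases past the stem-loop and that of Hist1h2be for 1861. No stem-loop was found in the models of Hist2h2be and Hist1h2bq. The split was made after the tissue differences were seen, so it is a description. Hist1h2bc, with 2 exons, was at 76.7 ± 13.7 in NP vehicle and 68.9 ± 19.5 in AF vehicle (SD, n = 5), a difference of 0.18 with a 95% interval of -0.26 to 0.61.

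**Figure D2:**
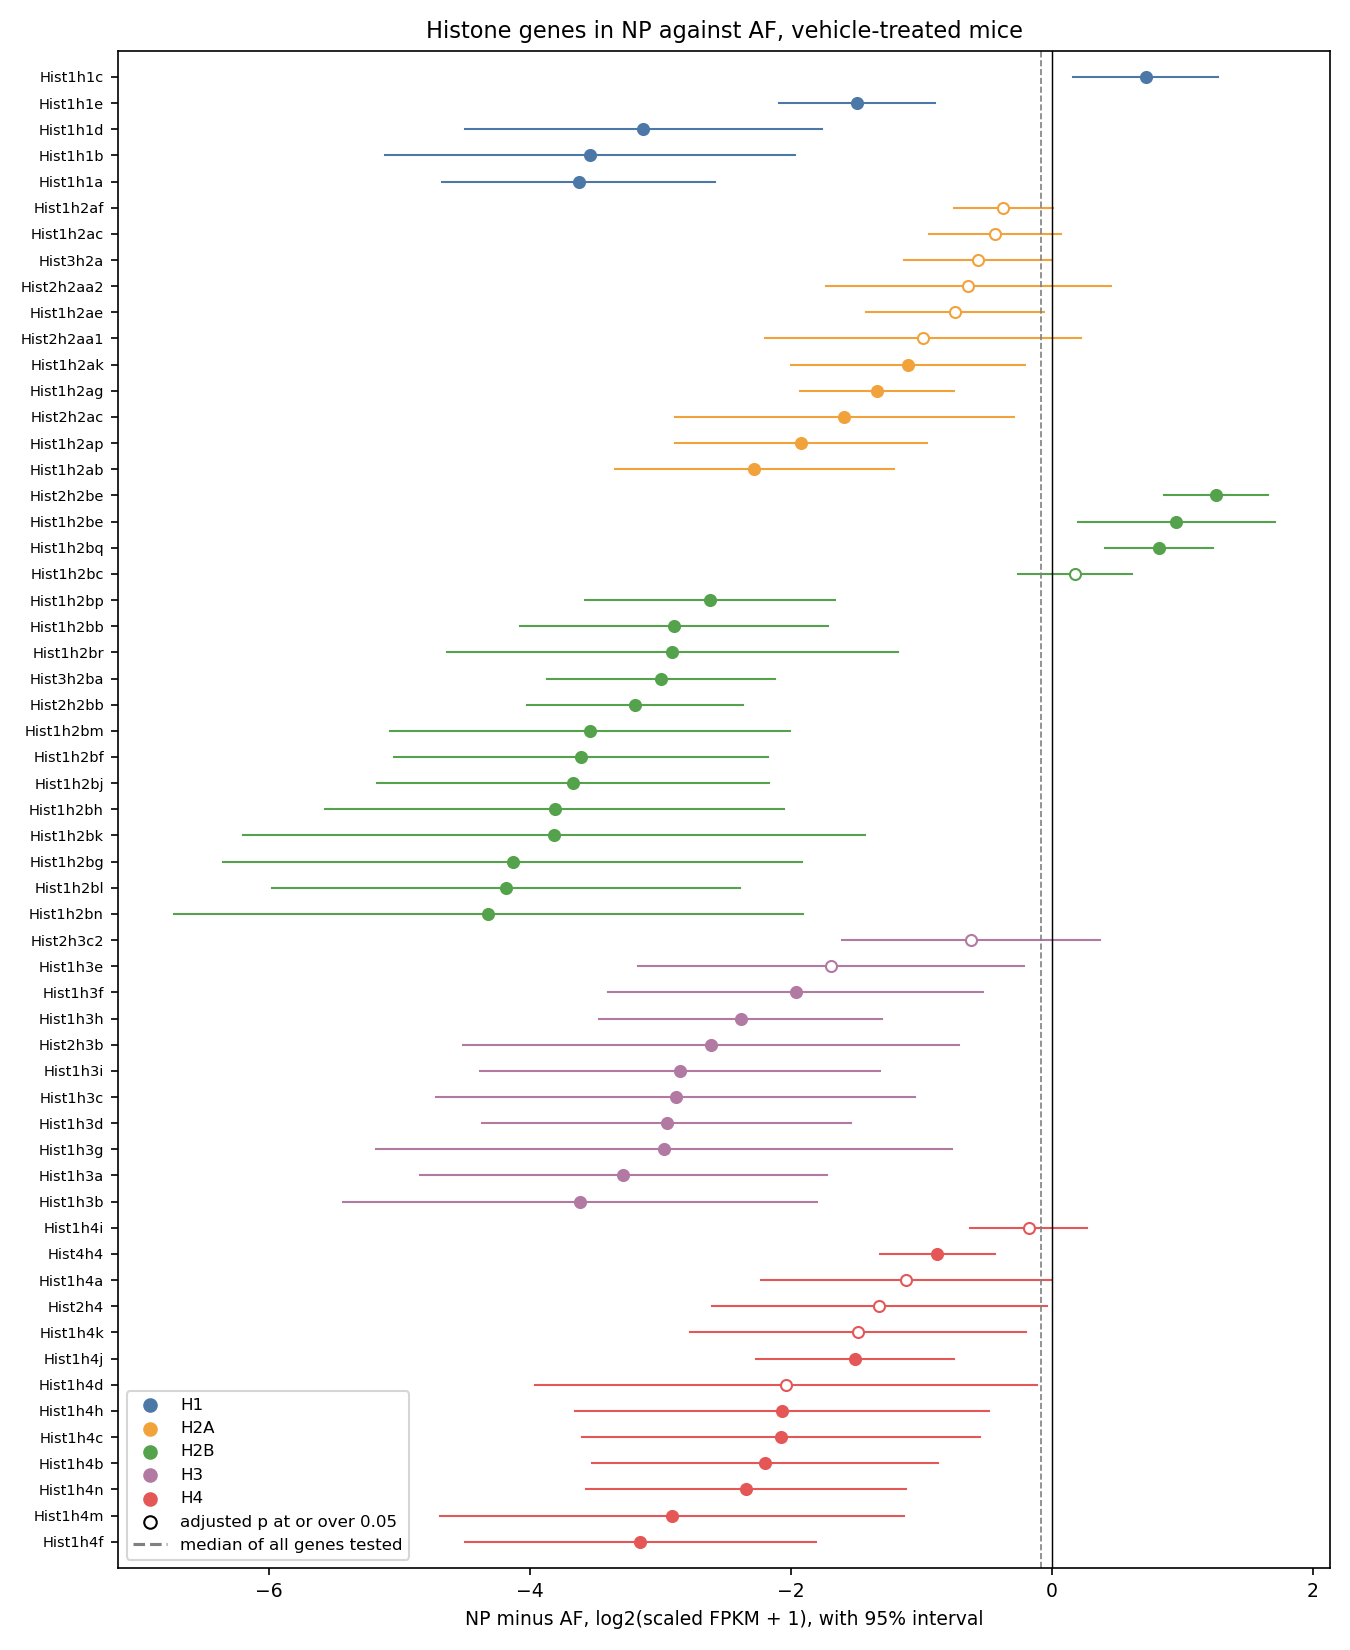
Log2 difference between NP and AF vehicle libraries for each of the 57 tested histone genes, grouped by type, with 95% intervals from limma; filled points passed an adjusted p of 0.05 and the dashed line is the median of all genes tested. Hist1h1c, Hist2h2be, Hist1h2be and Hist1h2bq lie to the right of 0 and 39 filled points to the left.

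H3 and H4 genes, the most conserved core histones, were lower in NP under vehicle without an exception among those called. Hist1h3b measured 0.386, 0, 1.09, 2.28 and 11.0 scaled FPKM in NP vehicle and 79.1, 45.1, 38, 3.54 and 46.6 in AF vehicle (-3.61 ± 0.82 SE, adjusted p = 0.00341). Hist1h3i had means of 3.58 ± 4.30 and 32.5 ± 21 (SD, n = 5, adjusted p = 0.00502). In both genes NP library 6 was the highest of its group and AF library 12 the lowest, and that pair makes the groups overlap. Hist1h4c was at 2.55, 2.05, 6.06, 16.8 and 17.2 in NP vehicle and 83.0, 28.2, 29.4, 6.86 and 54.5 in AF vehicle (-2.07 ± 0.69 SE, adjusted p = 0.0249), a call lost without NP vehicle library 1 or 2 or AF vehicle library 8 or 13. Hist1h4d (ENSMUSG00000061482, chr13:23581598-23582735, + strand), the most abundant H4 gene, was at 6.99, 4.54, 17.2, 34.2 and 57.0 in NP and 254, 88.3, 63.9, 8.91 and 129.6 in AF, and it did not pass the test (-2.04 ± 0.87 SE, adjusted p = 0.0684). Without AF library 12 its difference passed (-2.75), as it did without NP library 6 (-2.47). Hist1h4i, at 12.6 ± 2.68 and 14.6 ± 4.03 (SD, n = 5), was the H4 gene with the smallest difference (-0.17, 95% interval -0.62 to 0.28).

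H2A genes were measured at low levels in both tissues. Their 20 genes summed to 24.1 ± 8.83 scaled FPKM in NP vehicle and 61.2 ± 34.4 in AF vehicle, beside 212 ± 104 and 1123 ± 537 for H2B (SD, n = 5), although nucleosomes hold both histones in equal number. The H2A models have a median GC content of 64.3%, against 49.3% for the genes tested, and 12 of the 20 have fewer than 50% of their 100-base windows to themselves. All 20 are overlapped on the opposite strand by another annotated gene. The handling of reads that match more than 1 gene, and of strand in counting, is not given in the sources used here, so values of single H2A genes are uncertain. Shared sequence limits other types too. Fewer than 50% of 100-base windows to themselves were found for 5 H2B, 6 H3 and 3 H4 genes. Hist1h3b (43.4%) and Hist1h3i (31.4%) are among these. Hist2h2aa2, the H2A gene with the highest mean, shares every 100-base window with another transcript and was at 6.22, 1.90, 11.6, 17.6 and 13.9 in NP vehicle and 23, 14.6, 14.1, 5.75 and 16.5 in AF vehicle (-0.64 ± 0.49 SE, adjusted p = 0.299). Hist3h2a was at 9.43 ± 1.08 and 15.5 ± 6.74 (adjusted p = 0.0864).

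All 24 S-phase genes of the list were lower in NP under vehicle, and genes that handle histone mRNA were called in both directions. Slbp, the stem-loop binding protein, measured 12.9, 12.1, 12.0, 10.3 and 17.5 scaled FPKM in NP vehicle and 50.4, 44.4, 38.8, 31.4 and 42.4 in AF vehicle, with no overlap (-1.61 ± 0.15 SE, adjusted p = 1.76e-05). Npat, the activator of histone gene transcription, was called higher in NP (mean 11.2 ± 1.09) than in AF (8.59 ± 0.516, SD, n = 5, adjusted p = 0.0102). Of 12 tested genes of histone mRNA synthesis and processing, 6 were lower, among them Cpsf2 of the 3′ cleavage complex, 2 were higher and 4 were not called. The 24 S-phase genes, Pcna, Ccne2 and Mcm4 among them, and the 20 mitosis genes, Mki67, Prc1 and Tpx2 among them, were all called lower in NP. Mki67 was at 6.55 ± 4.21 in NP and 76.0 ± 17.7 in AF. Of the replacement variants 8 of 10 were lower, led by Cenpa and H2afz, and of the histone chaperones 4 of 8, led by Nasp and Asf1b. Every list was chosen with earlier results of these data known. Of all genes tested 33.9% were called lower in NP and 21.8% higher, or 55.7% in either direction.

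Markers of other cells moved with the tissue difference. Under vehicle, all tested genes of 8 lists were called lower in NP: 11 of neutrophil precursors, 9 erythroid, 9 B and plasma cell, 7 T and NK cell, 8 macrophage, 8 bone, 6 endothelial and 6 skeletal muscle genes. The summed neutrophil precursor genes ranged from 204 to 3165 scaled FPKM in NP vehicle and from 7298 to 19616 in AF vehicle, and none of the 11 was at 0 in any library. The summed erythroid genes ranged from 49.3 to 187 in NP vehicle and from 661 to 2139 in AF vehicle. Among the NP vehicle libraries, library 6 had the highest sums of all these lists except skeletal muscle, where library 3 was highest, and also the highest sums of H1, H2B, H3 and H4. Their part in the histone difference was not tested. Of the tissue's own markers, 8 of 9 NP genes were called higher in NP, led by Krt8 and T, and 1 lower, and 8 of 9 AF genes were called lower, led by Tnmd and Thbs4. Germline genes, which could accompany testis histones, were at a summed 1.13 to 4.42 in NP vehicle and 0.226 to 1.64 in AF vehicle, and 1 of 6 was tested (Sycp3, higher in NP, adjusted p = 0.0179).

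Under MDL-800 most members called between the tissues were lower in NP. Of the 57 tested members 26 were lower in NP, against 37.2% of all genes tested, and 2 were higher (Hist2h2be and Hist1h2bq), against 25.6%. The other 29 were not called, while 62.8% of all genes were called in either direction. Hist1h2ae and Hist1h2ag entered this test wholly through AF and Hist1h2bq mainly through NP, so these counts rest partly on the filter. The median difference was -1.66, and it was -1.08 without AF library 30. Hist2h2bb measured 29.1, 36.4, 32.3, 19.0 and 50.9 scaled FPKM in NP and 307, 175, 458, 292 and 827 in AF (-3.45 ± 0.38 SE, adjusted p = 2.34e-05). Hist1h1a was at 11.9, 28.2, 14.5, 8.49 and 57.1 in NP and 281, 127, 395, 192 and 865 in AF (-3.90 ± 0.58 SE, adjusted p = 0.000167). Neither gene had overlapping groups. Hist2h2be was at 18.3, 17.9, 18.7, 16.3 and 17.3 in NP and 9.76, 5.44, 5.46, 6.49 and 8.16 in AF (1.24 ± 0.14 SE, adjusted p = 3.35e-05). Counts by type were 4 of 5 H1, 2 of 11 H2A, 13 of 17 H2B, 6 of 11 H3 and 1 of 13 H4 lower. Ranges of 5 members did not overlap with NP lower and of 1 with NP higher, against 30.5% and 18.5% of all genes. Without AF library 27, 43 members were lower in NP. Over all 16383 genes, 10283 were then called in either direction, beside 10290 with that library in. The call of Hist1h2bq was lost without NP library 18 or 19 or AF library 28 or 29. It also rests partly on the filter, which this gene passed mainly through NP.

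**Figure D3:**
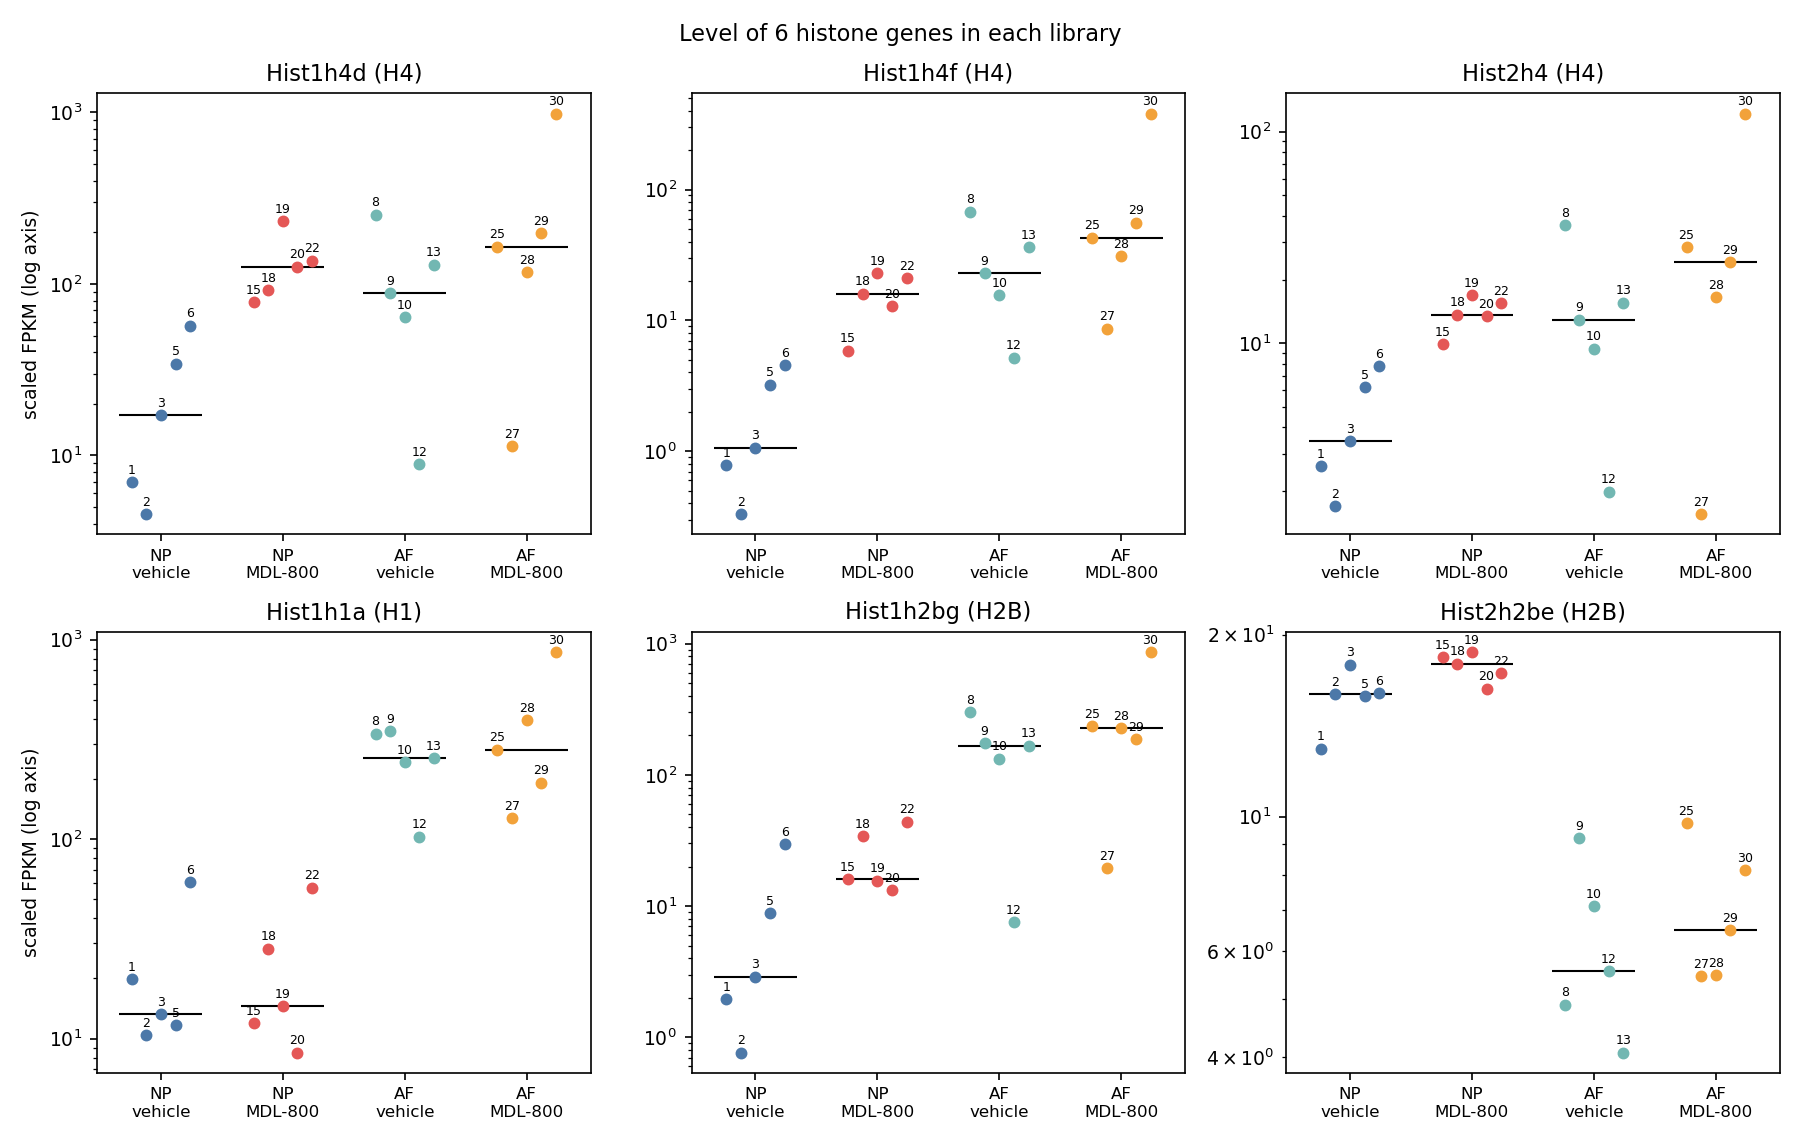
Scaled FPKM (log axis) of 3 H4 genes, the H1 gene Hist1h1a and the H2B genes Hist1h2bg and Hist2h2be in every library, with library numbers and a bar at each group's median. NP MDL-800 libraries lie above all NP vehicle libraries for Hist1h4d, Hist1h4f and Hist2h4, whereas the NP groups overlap for Hist1h1a and Hist2h2be is higher in every NP library than in every AF library.

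MDL-800 against vehicle within NP gave higher estimates for most histone genes but few calls. Hist1h2ak and Hist1h2af, a pair of low-level H2A genes, were called higher, which is 2 of 57 members against 0.232% of all genes tested, and 0 members were called lower, against 0.0183%. At an unadjusted p under 0.05 there were 35 members, and 2311 of the 16383 genes. Estimates were positive for 54 of the 57, where 6982 of the 16383 genes were positive, and the median was 1.24, beside -0.03 for all genes. The groups did not overlap for 11 members with MDL-800 higher, against 3.5% of all genes, and for 0 with MDL-800 lower, against 1%. Hist1h2af is among the 11 and entered the test only through MDL-800 libraries, so these counts rest partly on the filter. By type the median log2 difference was 0.46 for H1, 1.16 for H2A, 0.92 for H2B, 1.44 for H3 and 1.67 for H4.

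The called H2A genes were near the limit of detection. Hist1h2ak (chr13:21753435-21753827, − strand) measured 0.257, 0, 0, 0 and 0.296 scaled FPKM in NP vehicle, against 1.69, 2.92, 1.58, 0.963 and 2.42 in NP MDL-800 (1.36 ± 0.18 SE, adjusted p = 0.0218). A single fragment on this gene is worth 0.206 to 0.398 scaled FPKM. Hist1h2af (chr13:23533906-23534304, + strand) reached 1 FPKM in 6 libraries, all of them MDL-800 (NP 18, 20 and 22, AF 25, 29 and 30). It entered the test only through the groups where it is high, so its call, and with it the count of 2, rests partly on the filter. It was listed at 0 in every NP vehicle library and was at 0.418, 1.26, 0.565, 1.27 and 1.59 in NP MDL-800 (adjusted p = 0.0426). Both are overlapped on the opposite strand by another annotated gene, and both have a GC content of 68.4%. With the GC trend of each library removed neither passed (adjusted p = 0.323 and 0.748). Over all alternatives the adjusted p ranged from 0.0102 to 0.429 for Hist1h2ak and from 0.00919 to 0.748 for Hist1h2af. Both calls were lost in the fits without NP vehicle library 1, 2, 3 or 5 or without NP MDL-800 library 22, and the call of Hist1h2af also without NP MDL-800 library 18, 19 or 20.

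H4 had the largest median, and none of its genes passed the test. Hist1h4d measured 6.99, 4.54, 17.2, 34.2 and 57.0 scaled FPKM in NP vehicle, against 78.5, 91.7, 232, 126 and 136 in NP MDL-800. The groups do not overlap, with library 6 the highest vehicle library and library 15 the lowest MDL-800 library (2.83 ± 0.60 SE, adjusted p = 0.0743). Hist1h4f (chr13:23551258-23551648, − strand) was at 0.782, 0.330, 1.06, 3.22 and 4.56 under vehicle, against 5.87, 16.0, 23, 12.8 and 21 under MDL-800 (2.57 ± 0.45 SE, adjusted p = 0.0519). Hist2h4 (chr3:96261682-96263311, − strand) was at 2.63, 1.70, 3.45, 6.18 and 7.80 under vehicle, against 9.93, 13.7, 16.9, 13.5 and 15.4 under MDL-800 (1.59 ± 0.30 SE, adjusted p = 0.0617). Neither of these overlaps between groups. Hist1h4f and Hist2h4, with Hist1h4a, Hist1h4b and Hist1h4h below, are named after their values were seen. Hist1h4a, Hist1h4b and Hist1h4h did not overlap either (adjusted p = 0.0575, 0.0743 and 0.0756). In all, 6 of the 13 H4 genes did not overlap between groups, and the others did, Hist1h4c among them. The lowest H4 estimates were those of Hist1h4i (-0.03) and the lowly expressed Hist4h4 (0.11). The 13 H4 genes made up 8.96 ± 4.71% of the summed member level in NP vehicle, beside 21.8 ± 4.91% in NP MDL-800 (SD, n = 5). Hist1h4c was at 8.92 ± 7.51 and 37.8 ± 19.2 (adjusted p = 0.115).

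The other types had smaller median estimates, and none of their named genes below passed the test. Hist1h1a was at 23.2 ± 21.3 in NP vehicle, beside 24.0 ± 19.9 in NP MDL-800 (0.06, 95% interval -1.19 to 1.30, adjusted p = 0.982). Hist2h2bb was at 35.5 ± 25.2 and 33.5 ± 11.6 (0.07, 95% interval -0.78 to 0.93). Hist2h2be was at 15.7 ± 1.75 and 17.7 ± 0.962 (0.17, adjusted p = 0.423). Hist1h1c was at 291 ± 58.4 and 406 ± 116 (0.46, adjusted p = 0.351). Values of Hist1h2bg were 8.79 ± 12.0 and 24.6 ± 13.7 (2.00 ± 0.70 SE, adjusted p = 0.223), and those of Hist1h3b 2.94 ± 4.56 and 7.07 ± 4.51 (1.45 ± 0.64 SE, adjusted p = 0.342). Hist1h3i was at 3.58 ± 4.30 and 7.71 ± 1.97 (1.28 ± 0.44 SE, adjusted p = 0.222). Hist2h2aa2 was at 10.2 ± 6.23 and 34 ± 10.9, with no overlap between groups (1.84 ± 0.46 SE, adjusted p = 0.101). The lowest estimates were those of Hist1h2be (-0.18 ± 0.34 SE) and Hist1h2bq (-0.02 ± 0.20 SE).

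NP vehicle library 6 weighs on this comparison. It was the highest vehicle library for Hist1h4d, Hist1h1a, Hist1h2bg and Hist1h3b, and without it 15 members were called higher. These were 6 H4 genes (Hist1h4a, Hist1h4b, Hist1h4d, Hist1h4f, Hist1h4h and Hist2h4), 6 H3 genes, Hist1h2bg, Hist1h2ak and Hist1h2af. Over all 16383 genes tested, 189 were called in either direction without library 6, beside 41 with every library in. Without any one of vehicle libraries 1, 2, 3 and 5 or MDL-800 library 22 the count of members was 0. Without MDL-800 library 18 or 20 it was 1. Over all genes, the calls were 7, 5, 2 and 20 without vehicle library 1, 2, 3 and 5. They were 2, 24 and 4 without MDL-800 library 22, 18 and 20.

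**Figure D4:**
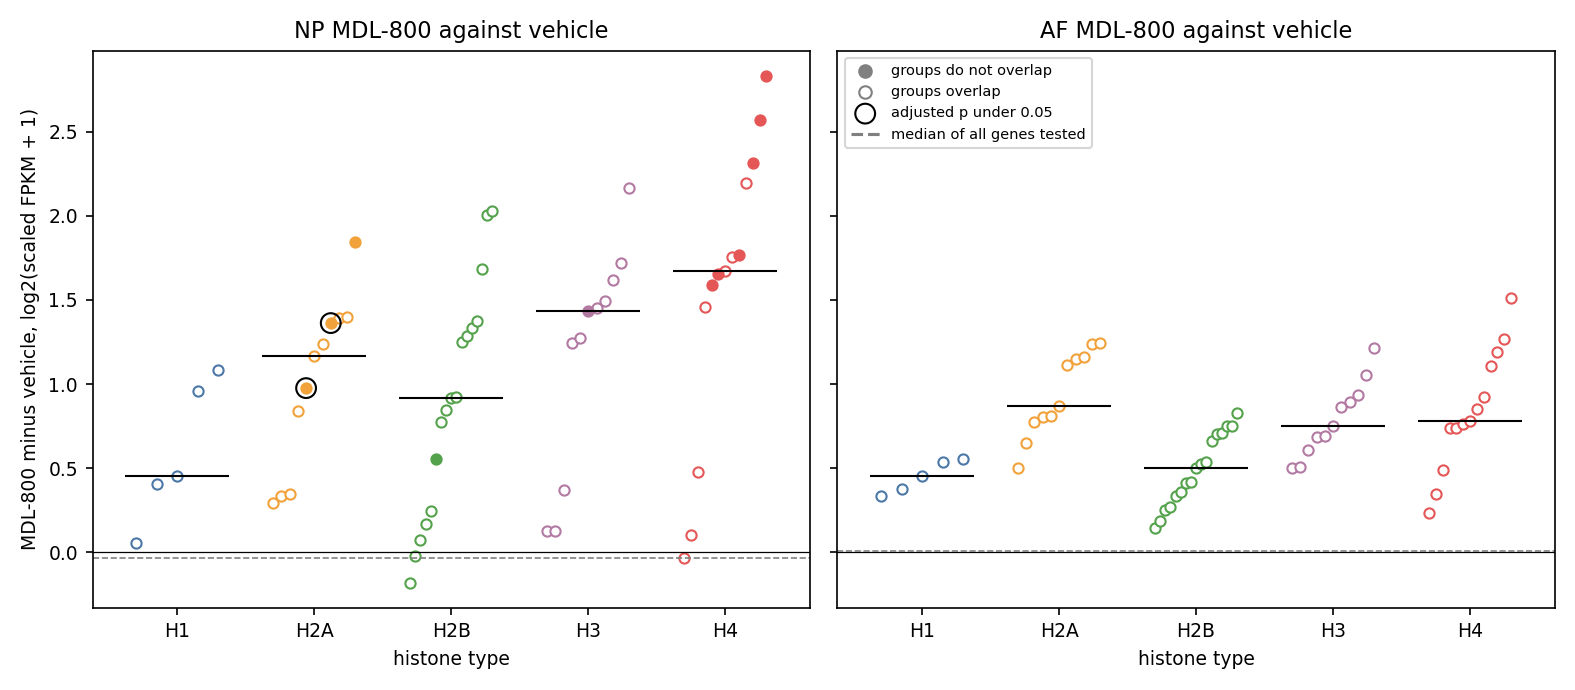
Log2 difference between MDL-800 and vehicle for the tested genes of each histone type, in NP (left) and AF (right), ordered by value within a type, with a bar at the type's median and a dashed line at the median of all genes tested. In NP 11 points are filled, meaning that no vehicle library reached any MDL-800 library, 6 of them H4, and 2 H2A genes are circled as called. Hist1h2af, filled and circled, entered the test only through MDL-800 libraries. In AF all 57 points are above 0 and all are open.

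No gene of the S-phase and mitosis lists was called between the NP groups, and other cell-cycle genes were not looked at. Of the 24 S-phase and 20 mitosis genes 0 were called in either direction, and their median log2 differences were -0.06 and -0.11. Mki67 measured 7.61, 3.29, 4.78, 3.65 and 13.4 scaled FPKM in NP vehicle, against 4.32, 9.14, 3.70, 1.60 and 13.3 in NP MDL-800. Library 19, with the highest Hist1h4d of the NP libraries, had an Mki67 level of 3.70, and library 20 the lowest Mki67 level of all. Libraries 6 and 22, with the highest summed histone level of their groups (1138 and 1647), also had the highest Mki67 (13.4 and 13.3). Slbp was at 13.0 ± 2.7 and 10.7 ± 1.30 (SD, n = 5, adjusted p = 0.457), Npat at 11.2 ± 1.09 and 10.9 ± 0.911 (adjusted p = 0.892) and Pcna at 52.0 ± 8.30 and 49.7 ± 5.17 (adjusted p = 0.862). No gene of the 16 lists was called in NP or in AF, including in NP the 10 tested replacement variants (median 0.0037), the 8 chaperones (median -0.016) and the 12 processing genes (median -0.10). The summed neutrophil precursor genes ranged from 195 to 1686 in NP MDL-800 and the erythroid genes from 30.6 to 221, beside 204 to 3165 and 49.3 to 187 in NP vehicle.

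The GC slope of the libraries moved with the NP groups. It was -0.28, -0.28, -0.026, -0.050 and -0.0067 log2 per 10 GC points in NP vehicle, beside 0.023, 0.062, 0.059, 0.085 and 0.088 in NP MDL-800, with no overlap. At the low end the H4 sum matched the slope: NP libraries 1 and 2, with the lowest slopes, had the lowest H4 sums (32.3 and 23.3 scaled FPKM), and in AF libraries 12 and 27 did (44.5 and 53.5). At the high end it did not: the highest H4 sums were in NP library 19 (446) and AF library 30 (2776), and the highest slopes in NP library 22 and AF library 29. With the GC trend removed from each library 0 members were called, 27 had an unadjusted p under 0.05 and the median difference was 0.88. Of all 16350 genes in that fit 25 were called. The H4 median was then 1.45, Hist1h4d was at 2.89 ± 0.60 SE (adjusted p = 0.0950) and Hist1h4f at 2.21 ± 0.38 SE (adjusted p = 0.0605). Without the 4 libraries of lowest slope, a choice made after seeing the data, 0 members were called and 23 had an unadjusted p under 0.05. The median was 0.71 and that of H4 was 1.34. Of all 16383 genes 11 were called in that fit. In NP the slope and the treatment cannot be told apart, since the slopes of the groups do not overlap.

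**Figure D5:**
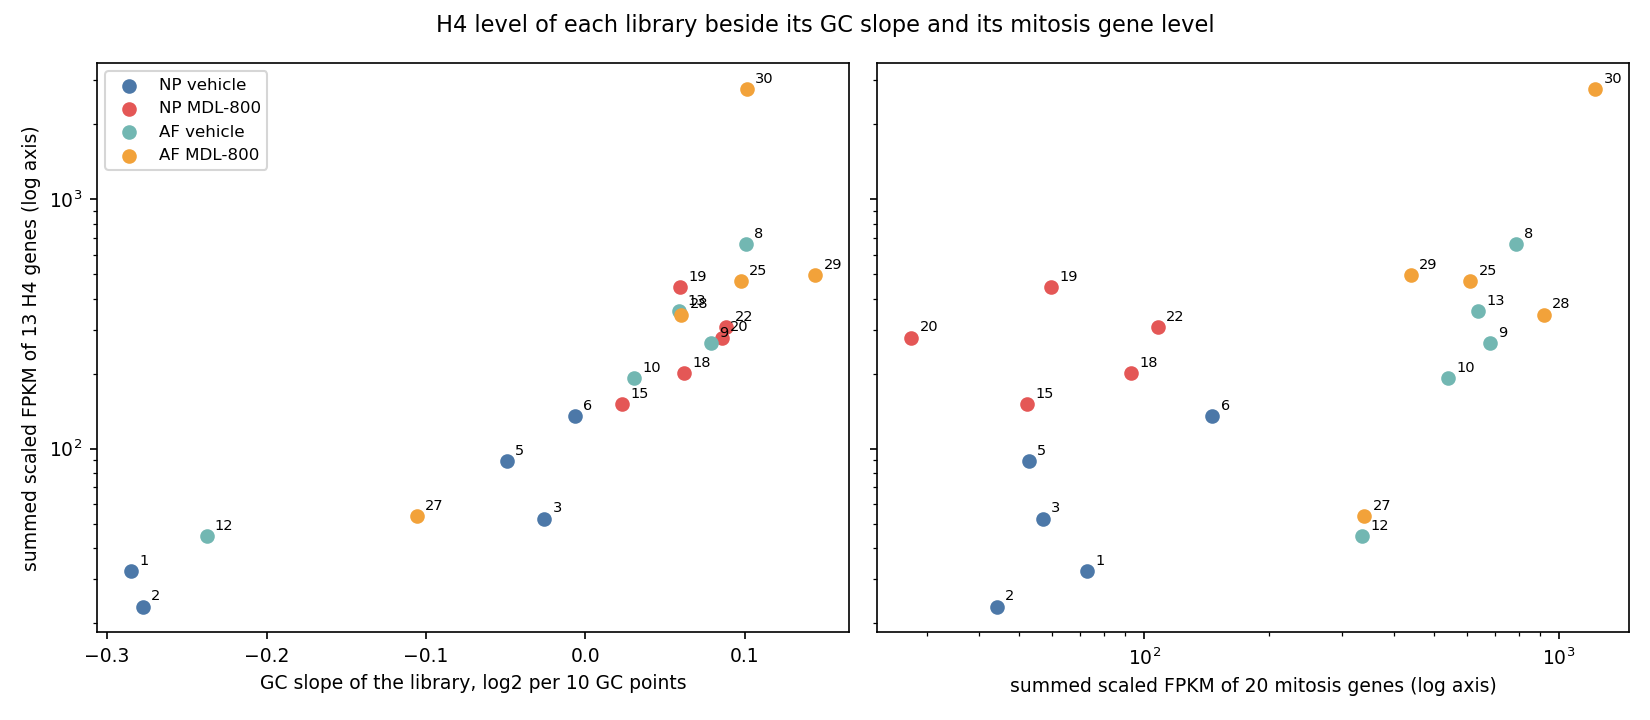
Summed scaled FPKM of the 13 H4 genes in each library (log axis) against the GC slope of the library (left) and against the summed level of the 20 mitosis genes (right, log axis), with library numbers. The 5 NP MDL-800 libraries lie to the right of and above the NP vehicle libraries in the left panel, and in the right panel range over mitosis sums of 27.4 to 108, beside 44.1 to 146 in NP vehicle.

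In AF, MDL-800 against vehicle gave no call among the histone genes. With limma 0 of the 57 members and 0 of all genes tested (0%) had an adjusted p under 0.05, and 0 members and 270 genes had an unadjusted p under 0.05. All 57 estimates were positive, with a median of 0.71, beside 0.01 for all genes tested, but that median was 0.16 without library 30, 0.23 without library 12 and 1.39 without library 27. Other lists also had mostly positive estimates with 0 genes called: all 8 bone genes (median 0.76, sums 675 ± 333 under vehicle and 1545 ± 519 under MDL-800, SD, n = 5), 23 of 24 S-phase genes (0.15), 19 of 20 mitosis genes (0.12) and all 11 neutrophil precursor genes (0.20). Groups overlapped for all 57, where 0.128% of all genes tested did not overlap with MDL-800 higher and 0.0977% with MDL-800 lower. The smallest p-values were those of Hist1h2af and Hist1h2ae. Hist1h2af measured 0.638, 0.241, 0, 0 and 0.763 scaled FPKM under vehicle, against 1.60, 0, 0.247, 1.89 and 20.6 under MDL-800 (1.16 ± 0.70 SE, adjusted p = 1). Hist1h2ae measured 2.74, 0.560, 0, 0.200 and 1.21 under vehicle, against 4.98, 0, 2.12, 1.27 and 16.1 under MDL-800 (1.11 ± 0.68 SE, adjusted p = 1). In each gene library 30 was the highest and library 27 was listed at 0. Hist1h4d was at 254, 88.3, 63.9, 8.91 and 129.6 in AF vehicle, against 165, 11.3, 117, 197 and 985 in AF MDL-800 (0.92 ± 1.12 SE).

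The AF libraries with extreme histone levels were also extreme for some other gene lists, but not for all. Mki67 was at 86.8, 79.0, 83.0, 44.9 and 86.5 in AF vehicle, against 80.3, 33.8, 127, 52.2 and 141 in AF MDL-800, lowest in libraries 12 and 27 and highest in library 30. The summed mitosis genes were at 336 in library 12, 339 in library 27 and 1224 in library 30, and the erythroid genes at 661, 624 and 3340. The neutrophil precursor genes stood at 7553, 6219 and 33283, and their lowest vehicle library was library 10 (7298). The part of these cells in the histone values was not tested.

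The treatment effect was not shown to differ between tissues. In the fit of all 4 groups 0 members passed for the difference of effects (0% of all genes tested), 0 had an unadjusted p under 0.05 and the smallest adjusted p was 0.9997. The largest difference was that of Hist1h4d, where the effect in NP exceeded that in AF by 1.91 on the log2 scale (95% interval -0.92 to 4.73). For Hist1h4f it was 1.47 (95% interval -0.77 to 3.70), and over the 13 H4 genes the median was 0.81. The intervals include differences of more than 3 on the log2 scale, and the spread of these libraries limits what could be detected.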

How the data were processed

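The authors deposited 1 table of FPKM values for 51789 genes in 20 libraries, made from total RNA (50 ng input, rRNA depletion, 14 PCR cycles, per the labels' protocols). STAR 2.7.11b and mm10 are listed in the submitters' processing notes without a role; the counting tool, annotation, strand setting and treatment of multi-mapped reads are not given in the sources used here. No per-sample column was unused (0). FPKM values were divided by a median-ratio factor over 11308 genes, a pseudocount of 1 was added, and limma 3.58.1 (R 4.3.3, trended eBayes, two-sided, Benjamini-Hochberg) was fitted to the 2 groups of each comparison, or all 4 for the difference of effects, over genes at 1 FPKM or more in 5 libraries. The limma script was tested on simulated data. Depth (12.8 M to 22.0 M fragments) was estimated from the steps between low values, and intervals reflect spread between libraries only. Of the members, 67 matched GENCODE M21 by identifier and 2 by symbol.

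The members and lists were chosen with earlier results of these data known. Named by rule were the 2 most abundant genes of each type, the 2 smallest p-values per direction in each pairwise comparison, all called members of treatment comparisons (up to 6), Slbp, Npat, Mki67 and Pcna, and up to 2 genes per list; other genes were named after their values were seen. Alternatives covered scaling, pseudocount, filter, model, GC trend, gene set and each library left out in turn. Same-numbered columns of NP and AF were checked for pairing.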

Additional observations from a re-analysis of the deposited data

Results flagged for a closer look

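Libraries are given here where the gap between the highest or lowest library and its nearest neighbour exceeded 0.71 of the group's whole range (Dixon's 95% value for 5 libraries). Of 83 groups checked, 22 met this. The rule was applied to scaled FPKM and not to log2 values. Its rate of about 1 in 20 by chance holds for normally distributed values, so it is no measure for these counts. The groups are not independent, since histone genes of a library rise and fall together.

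AF MDL-800 library 30 was far above the other 4 of its group in 12 of these. Its summed H2A level was 598 scaled FPKM, beside at most 119.5 in the others, its H3 sum 1472 beside at most 384, and its H4 sum 2776 beside at most 498. Among single genes it had Hist1h4d at 985, Hist1h4c at 292, Hist1h2bg at 863, Hist1h3b at 239.7, Hist1h3i at 183, Hist2h2aa2 at 191, Hist3h2a at 65.0, Hist1h2ak at 33.5 and Hist1h2af at 20.6.

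NP vehicle library 6 stood above the other 4 in 7. Its H2B sum was 394, beside at most 192, and its H3 sum 71.9, beside at most 20.0. It had Hist1h1a at 60.8, Hist2h2bb at 78.9, Hist1h2bg at 29.5, Hist1h3b at 11.0 and Hist1h3i at 11.2.

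The other 3 concern low values. Hist1h2ak was at 5.98 in AF vehicle library 8, beside at most 1.5 in the others. Hist1h2ae was at 0.187 in NP vehicle library 5 and listed at 0 in the other 4, and it was listed at 0 in NP MDL-800 library 19, where the others lay between 0.339 and 0.453.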

How the results depend on the processing

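For MDL-800 against vehicle in NP, the 2 members called higher became 1 with no library factor or no mean-variance trend, 4 with quantile normalization, 5 among protein-coding genes only, and 0 with no filter, with all 4 groups in one fit, with the GC trend removed or without the 4 libraries of low GC slope, and ranged from 0 to 15 when each library was left out. Without the 5 libraries that stand apart, listed below, 3 members were called, beside 17 of all genes. These were Hist1h3a, Hist1h4b and Hist2h3b, and neither Hist1h2ak nor Hist1h2af was called there. For NP against AF under vehicle, the 4 higher became 2 with no filter, with all 4 groups in one fit, without the 5 libraries that stand apart (NP 6 and 22, AF 12, 27 and 30) or without the 4 of low slope, and ranged from 2 to 4 with a library left out; the 39 lower moved by less than 1.5 times. Under MDL-800 the 2 higher became 1 with no filter, with a minimum of 5 FPKM or without the 5 libraries, and 1 to 3 with a library left out; the 26 lower became 42 without the 5 libraries, 43 without the 4, and 23 to 43 with a library left out. Over all genes, NP treatment calls in either direction were 41 in the main fit and 18 with no library factor or no mean-variance trend. They were 70 with quantile normalization, 85 among protein-coding genes, 7 with no filter and 4 with all 4 groups in one fit. With the GC trend removed there were 25, and without the 4 libraries 11. Between the tissues under MDL-800 they were 10290 in the main fit, 9206 without the 5 libraries and 10283 without the 4. Both exclusions of several libraries were chosen after seeing the data. Where a count moved, the cause was not tested.

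Small uncalled NP treatment estimates changed sign. Hist1h1a was at -0.0226 with every library rescaled to 1 common sum, -0.0254 with the GC trend removed, -0.16 without the 4 libraries and -0.33 to 0.48 with a library left out. Hist2h2bb was at -0.0031, -0.043, -0.12 and -0.14 to 0.41 in the same order. Hist1h2bq was at 0.049 with the GC trend removed, 0.19 without the 5 libraries and -0.12 to 0.11 with a library left out, and Hist1h2be at 0.28 without the 4 libraries and -0.34 to 0.0627.

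NP and AF columns share a number whose meaning the headers do not give. Deviations of same-numbered libraries correlated between -0.18 and 0.29, so pairing is not established. With a replicate block on that number, added after seeing the data, the 26 lower under MDL-800 became 11 on the 3 shared numbers, and Hist1h4c lost its call under vehicle. Over all genes, the calls under MDL-800 were 7858 with that block, beside 10290 in the main fit. No paired analysis was possible for the treatment comparisons because their columns share no number.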
